A study of Mus musculus with 27 samples.

Results

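Neutrophils and monocytes sorted from the same organ, the lung of wild-type (WT) C57BL/6 mice, were compared gene by gene. The comparison used 5 of the 27 libraries of the series, taken by their labels: 3 of CD11b+Ly6G+ neutrophils (replicates 5, 6 and 7) and 2 of CD11b+Ly6C+ monocytes (replicates 3 and 4). The comparison itself was chosen with earlier results of these data known. All 5 came from WT lungs, and the labels name no transgene, deletion or tumour for either group. The lungs were perfused and dissociated, cells were sorted by flow cytometry, and libraries were built from 16 to 33 ng of total RNA. The labels do not say whether the libraries came from separate animals, whether animals were pooled, how old they were, or whether Ly6G+ cells were kept out of the monocyte gate. The p values therefore measure only the spread between these libraries.

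Neutrophils and monocytes descend from shared progenitors in the bone marrow and circulate side by side in the blood and in the capillaries of the lung. Neutrophils are short-lived, depend on the growth factor G-CSF, carry microbicidal proteins in granules formed during maturation, and follow chemokines such as CXCL1 and formyl peptides of bacteria. Monocytes depend on M-CSF, follow the chemokine CCL2, and can become macrophages and antigen-presenting cells in tissue.

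Values are FPKM, fragments scaled to the length of the transcript (per kilobase) and to the number of fragments mapped in the library. They are listed for monocyte replicates 3 and 4 first and for neutrophil replicates 5, 6 and 7 after them. A log2 difference is neutrophils minus monocytes on the log2(FPKM + 1) scale, with its standard error (SE) and the Benjamini-Hochberg adjusted p of limma over 10282 tested genes. A fold is the ratio of the group means in FPKM. Across the tested genes (which are not independent replicates), Pearson's r was 0.964 between the monocyte libraries, 0.985 to 0.989 among the neutrophil libraries and 0.745 to 0.788 between the populations. Fewer genes reached 1 FPKM in neutrophils (8615 to 8920) than in monocytes (10200 and 10238), and the 10 most abundant transcripts took 15.1% to 16.5% of all FPKM in neutrophils against 6.20% and 6.54% in monocytes. The log2 difference of the median gene was -0.93 on the deposited scale, -0.37 after upper-quartile scaling and -0.11 after quantile normalization. A gene is said here to be higher, lower, to rise or to fall only where limma called it the same way under all 3 scalings, unless the sentence says otherwise. The 2 monocyte libraries also differed from each other: replicate 4 held more transcripts of NK cells and of some granule genes such as Camp and Ltf, and replicate 3 more of alveolar type II epithelium, with values given beside the results they touch.

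The labels and the defining genes of both cells matched. S100a8, a calcium-binding subunit of calprotectin, was the most abundant transcript of each neutrophil library, at 24368, 21819.5 and 22193 FPKM, against 10.9 and 666 FPKM in monocytes (log2 difference 8.0, SE 1.36, adjusted p = 0.000901). Its log2 difference was 10.90 without monocyte replicate 4 and 5.09 without replicate 3. Csf3r, the G-CSF receptor, read 78.7 and 62.5 against 1724, 2059 and 1638 FPKM (log2 difference 4.66, SE 0.17, adjusted p = 1.9e-06). Csf1r, the M-CSF receptor, went the other way, with 302 and 245 against 55.2, 62.4 and 65.3 FPKM (log2 difference -2.14, SE 0.15, adjusted p = 1.5e-05). None of these 3 genes had a neutrophil library inside the range of the monocytes. Itgam, which encodes the sorted antigen CD11b, was present in all 5 libraries (145 and 148 against 343, 361 and 344 FPKM, log2 difference 1.25, SE 0.12, adjusted p = 6.3e-05). The genes for Ly6C and Ly6G were not analysed here.

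Of 24 neutrophil identity genes in the table, 20 were tested and 4 were listed at 0 in a whole group. Limma called 19 of the 20 higher in neutrophils and 1 lower on the deposited scale, where 14.5% of all tested genes were called higher and 65.2% lower. The median difference was 5.01. Under all 3 scalings the same 19 were higher, against 14.1% of all genes, while 28.5% of all genes were lower. The shares of the lists below that were called lower are to be read against 65.2% on the deposited scale and 28.5% under all 3 scalings. Asprv1, a retroviral-like aspartic protease, had the largest difference among the genes of the naming rule, from 0.0429 and 0.224 FPKM in monocytes to 436, 409 and 495 FPKM in neutrophils (log2 difference 8.62, SE 0.15, adjusted p = 2.0e-07). Cxcr2, the receptor for CXCL1 and its relatives, rose from 1.73 and 2.45 to 125, 123 and 101 FPKM. Mmp9, the gelatinase of neutrophil granules, rose from 3.67 and 16.6 to 433, 454 and 578 FPKM. The neutrophil libraries lay far above both monocyte libraries for these genes. Trem1, an amplifier of inflammatory signals, rose from 34.9 and 25.5 to 1496, 1574 and 1496 FPKM. Mxd1, a partner of MAX that opposes MYC, rose from 30 and 53.1 to 1699, 1919 and 1501 FPKM. Ltb4r1, a leukotriene B4 receptor, was the member called lower on the deposited scale (37.5 and 22.2 against 14.1, 17.1 and 18.2 FPKM), a call that the other scalings and the comparison without monocyte replicate 3 or neutrophil replicate 5 did not give.

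Among 16 classical monocyte genes, 14 were called lower in neutrophils and 2 higher, 13 and 2 of them under all 3 scalings, with a median of -3.82. Without monocyte replicate 3 or 4, 9 and 10 of the 12 members that still met the filter were lower. Ccr2, the receptor that guides monocytes out of the marrow, fell from 162 and 103 FPKM in monocytes to 0.451, 0.437 and 0.973 FPKM in neutrophils (log2 difference -6.34, SE 0.24, adjusted p = 1.9e-06). F13a1, the A subunit of coagulation factor XIII, fell from 211 and 136 to 0.226, 0.341 and 0.766 FPKM (log2 difference -6.90, SE 0.24, adjusted p = 1.8e-06). Fn1, or fibronectin, fell from 216 and 178 to 4.13, 5.23 and 4.78 FPKM. Neutrophils held less than 6 FPKM of each of these 3 genes. Plac8 remained measurable in neutrophils, at 75.7, 71.7 and 69.3 FPKM, below monocyte levels of 2315 and 1512 FPKM. An exception of this list was Cd14, the co-receptor for lipopolysaccharide, which read 239.5 and 156 against 4959, 4669 and 3814 FPKM (log2 difference 4.52, SE 0.22, adjusted p = 4.2e-06), with no overlap.

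**Figure D1:**
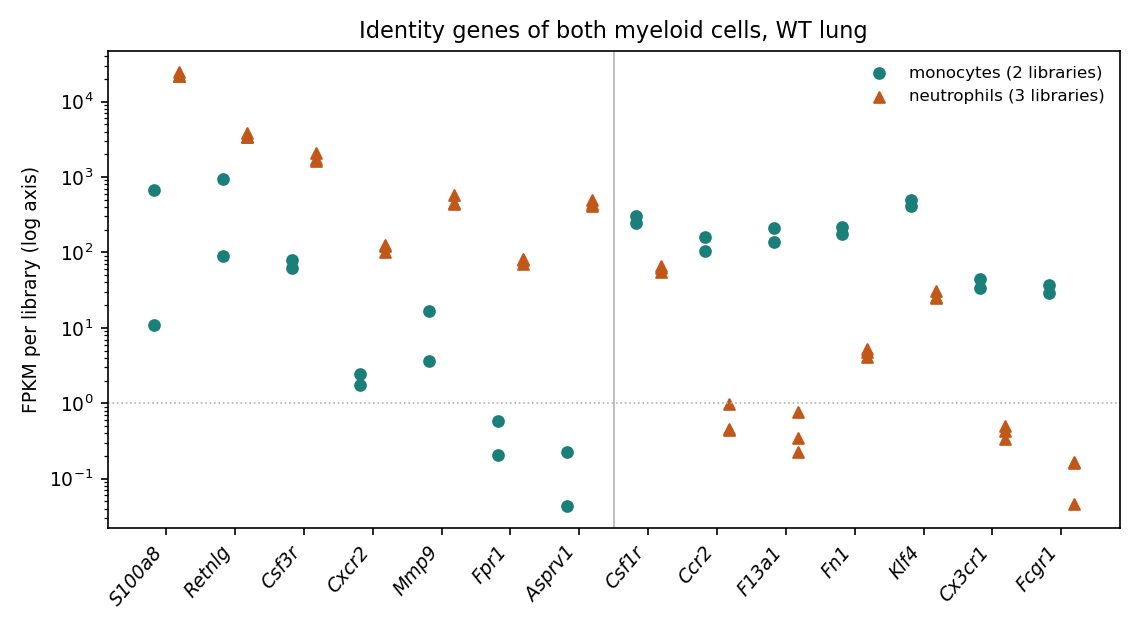
FPKM of 14 identity genes in each WT library, on a log axis, with circles for the 2 monocyte libraries and triangles for the 3 neutrophil libraries; the dotted line marks 1 FPKM and the vertical line parts genes of neutrophils (left) from genes of monocytes (right). In all 14 the groups do not overlap, and the monocyte libraries are widest apart for S100a8.

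Genes linked to the non-classical, patrolling monocyte were divided. Cx3cr1, the fractalkine receptor, fell from 44.9 and 34 to 0.338, 0.422 and 0.495 FPKM. The peptidase gene Ace (18.7-fold) and the scavenger receptor gene Cd36 (10.6-fold) were lower in neutrophils too. Endothelial marker genes, given below, were also lower (sums of 1584 and 995 against 153, 129 and 119.9 FPKM). The part of endothelial cells in the Ace and Cd36 differences was not tested. By contrast Fcgr4, an IgG receptor of patrolling monocytes, was higher in neutrophils (17.6 and 10.2 against 118, 98.7 and 92.4 FPKM), as was Pglyrp1, a peptidoglycan-binding protein stored in granules (34.5 and 103 against 533, 641 and 662 FPKM). Of the 16 members, 11 were called lower and 5 higher on the deposited scale, and 6 and 4 under all 3 scalings. Surface genes shared by monocytes and macrophages were lower in 12 of 17 and higher in 3, and 10 and 3 of these calls held under all 3 scalings (7 of 12 tested were lower without monocyte replicate 3). Msr1, a scavenger receptor, read 49.3 and 27.9 against 0.0105, 0.0844 and 0.257 FPKM, and the mannose receptor gene Mrc1 read 7.85 and 14.5 against 1.45, 1.43 and 0.808 FPKM. The tetraspanins Cd9 (6.92-fold) and Cd63 (3.49-fold) were higher in neutrophils.

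Across all 10282 genes, 1487 were called higher in neutrophils and 6709 lower on the deposited scale, and 1454 and 2932 under all 3 scalings. The 12 largest rises held S100a8, Asprv1 and Il1f9, the gene for the cytokine IL-36 gamma. Il1f9 rose from 1.05 and 1.17 to 289, 347 and 324 FPKM (log2 difference 7.25, SE 0.14, adjusted p = 2.3e-07). G0s2, an inhibitor of the lipase ATGL, rose from 16.8 and 48.9 to 2604, 2854 and 2754 FPKM. Rdh12, a retinol dehydrogenase, rose from 2.79 and 4.11 to 735, 687 and 493 FPKM. For these 3 genes every neutrophil library was far above both monocyte libraries. Arg2, the mitochondrial arginase, rose from 3.26 and 3.99 to 339, 382 and 293 FPKM. H2-Q10, a class I histocompatibility gene, read 0.852 and 1.9 against 334, 361 and 307 FPKM, but its near-identical relatives could share fragments with it, so its value is uncertain.

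The largest fall was that of S100a4, a calcium-binding relative of S100a8, from 2016 and 1213 FPKM in monocytes to 9.92, 11.1 and 10.3 FPKM in neutrophils (log2 difference -7.10, SE 0.21, adjusted p = 1.1e-06). Both S100 genes lie on chromosome 3, S100a4 at chr3:90603771-90606045 and S100a8 at chr3:90668978-90670035 (GENCODE M21, GRCm38), and they stood at opposite ends of the comparison. The 12 largest falls also held Cyp27a1, a sterol hydroxylase (90.6 and 109 against 0.771, 0.753 and 1.57 FPKM), and Pld4, an endolysosomal exonuclease (378 and 405 against 9.65, 7.83 and 10.7 FPKM). Ms4a6d, of the MS4A family of membrane proteins, fell from 82.3 and 39.1 to 0.217, 0.497 and 0.526 FPKM. Rnd3, an atypical small GTPase, fell from 91 and 60.9 to 0.399, 0.566 and 0.639 FPKM. Ms4a8a, Ptpro, a receptor-type phosphatase, and Ccdc109b, a subunit of the mitochondrial calcium uniporter, had the same form, with less than 1 FPKM in each neutrophil library.

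**Figure D2:**
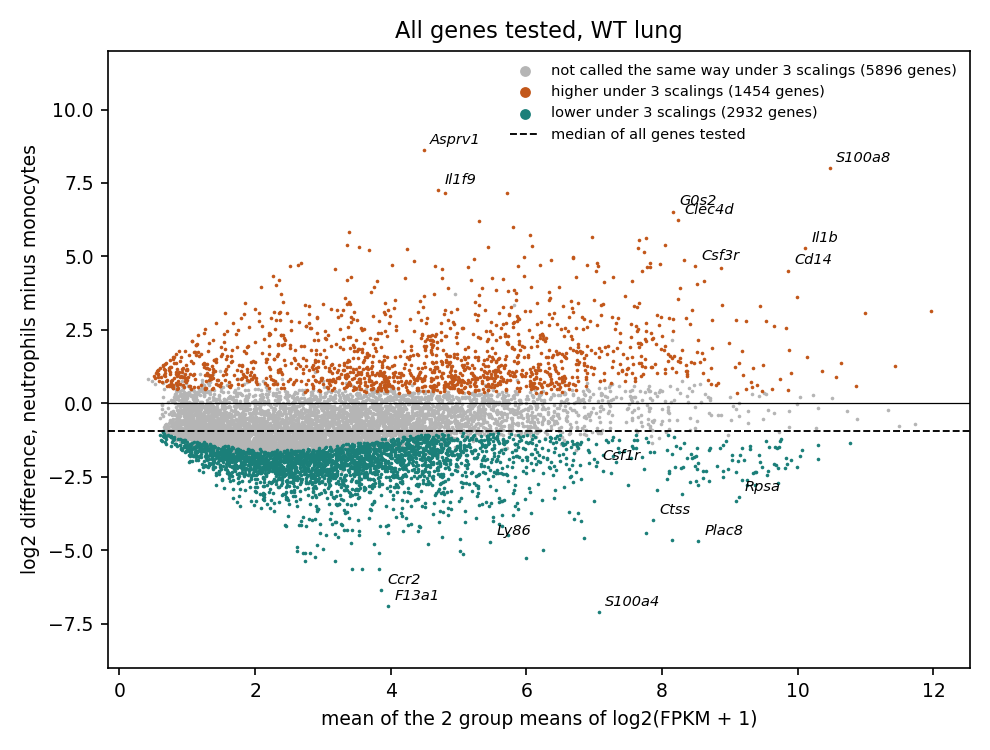
Log2 difference between neutrophils and monocytes (vertical axis) against the mean of both group means of log2(FPKM + 1) (horizontal axis) for the 10282 genes tested; orange and green points were called higher or lower under all 3 scalings, grey points were not, and the dashed line is the median of all genes, -0.93. The cloud lies below 0 on the deposited scale, and genes such as S100a8, Il1b and Cd14 lie at its upper right.

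Most granule genes were higher in neutrophils: 13 of 20 tested were called higher and 3 lower, 12 and 2 under all 3 scalings, with a median of 2.82. Mmp8, the neutrophil collagenase, rose from 34.4 and 9.26 to 151, 145 and 156 FPKM. Chi3l1, a chitinase-like lectin, rose from 37 and 6.68 to 194, 175 and 216 FPKM. Padi4, the enzyme that citrullinates histones, rose from 16.2 and 29.8 to 111, 121 and 108 FPKM, whereas its relative Padi2 fell from 33.5 and 37.1 to 1.09, 1.31 and 0.986 FPKM. Genes of the azurophil granules, which are transcribed in precursors, were low throughout. Mpo, Elane and Ctsg were below 1 FPKM in all 5 libraries, and Prtn3 was lower in neutrophils (6.44 and 9.01 against 0.498, 0 and 0.504 FPKM).

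Some granule transcripts were more abundant in monocyte replicate 4 than in replicate 3. Camp, the cathelicidin gene, was at 0.144 and 272 FPKM in monocytes and 93.8, 266 and 229.9 FPKM in neutrophils, so that replicate 4 lay above the neutrophils. Ltf, or lactoferrin, read 0.112 and 64.3 against 70, 163 and 119 FPKM. Retnlg, a resistin-like gene, read 88.7 and 931 against 3788, 3430.5 and 3387 FPKM, and Lcn2, a siderophore-binding lipocalin, read 11.4 and 97.6 against 639.5, 645 and 779 FPKM. Replicate 4 exceeded replicate 3 in each of these 4 genes, while Mmp8 and Chi3l1, given above, were higher in replicate 3. The whole granule list summed to 1962 FPKM in replicate 3 and 2142 FPKM in replicate 4. Its mean sum was also 4309 FPKM in WT epithelial cells and 1943 FPKM in WT macrophages. The neutrophil identity list summed to 859.6 FPKM in replicate 3 and 3417.5 FPKM in replicate 4, with S100a9 at 8.93 and 958.5 FPKM. Without replicate 4 the log2 difference was 5.30 for Retnlg, 5.79 for Lcn2, 6.66 for Ltf and 7.30 for Camp, and without replicate 3 it was 1.92, 2.80, 0.78 and -0.60. Ltf was called on the deposited scale (adjusted p = 0.038, limma), but not after quantile normalization, with a pseudocount of 0.1, with no filter, with robust empirical Bayes or without replicate 3 (adjusted p = 0.11) or any 1 neutrophil library (0.062 to 0.10). Camp was not called (adjusted p = 0.13), but was without replicate 4 (adjusted p = 2.7e-05) and when all 10 groups of the table were fitted together (adjusted p = 0.026). Of the 20 identity genes, 19 were called higher without replicate 3 and 19 without replicate 4. The part of other cells in these transcripts was not tested.

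A further 13 genes were listed at exactly 0 FPKM in every library of 1 group while the other averaged at least 5 FPKM, and they were neither tested nor read as absent. In neutrophils these were Cxcl2, Fth1, Hdc, Il1r2, S100a9 and Thbs1. S100a9, the partner of S100a8 in calprotectin, was listed at 0 in all 3 WT neutrophil libraries, yet averaged 15799 ± 2305 FPKM (mean ± SD, n = 3) in neutrophils from tumour-bearing lungs of the same table and 1005 ± 94.7 FPKM (n = 3) in WT total lung cells. Il1r2, the decoy receptor of interleukin-1, averaged 4347 ± 244 FPKM in the tumour neutrophils, and Hdc, which makes histamine, 1732 ± 30.1 FPKM. Cxcl2, Fth1 and Thbs1 were at 0 there as well, although Fth1, the ferritin heavy chain, read 2879.6 and 2154 FPKM in WT monocytes. In monocytes Cxcr1 was among the 7 genes listed at 0, against 9.73, 8.6 and 10.7 FPKM in neutrophils.

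Of 33 myeloid transcription factors tested, 19 (57.6%) were called lower in neutrophils and 7 higher on the deposited scale, with a median of -0.77, and 10 (30.3%) and 7 under all 3 scalings. The shares called lower were near those of all genes (65.2% and 28.5%). Klf4, needed for monocyte formation, fell from 489 and 410.1 to 30.5, 24.6 and 25.4 FPKM (log2 difference -4.02, SE 0.15, adjusted p = 1.9e-06), and Irf8, which favours monocytes over neutrophils in progenitors, from 103 and 138 to 7.82, 6.41 and 12.5 FPKM. The groups did not overlap for these genes, and Cebpa was lower too (5.47-fold). Cebpb, the C/EBP factor of emergency granulopoiesis, was higher in neutrophils (278 and 176 against 728, 881 and 855 FPKM). So were the AP-1 gene Fosl2 (4.74-fold) and Hif1a, the oxygen-responsive factor (2.21-fold).

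Genes of MHC class II presentation were lower in neutrophils in 14 of 18 and higher in 1, with a median of -2.02, and 10 and 1 of these calls held under all 3 scalings. The lower members were 77.8% of the list on the deposited scale, against 65.2% of all genes, and 55.6% under all 3 scalings, against 28.5%. Cd74, the invariant chain, fell from 2039 and 2306 to 451, 381 and 637 FPKM (log2 difference -2.18, SE 0.22, adjusted p = 7.2e-05). The class II chain H2-Aa fell from 617 and 736 to 138, 129 and 182 FPKM and H2-Eb1 from 262 and 375 to 109, 101 and 130.0 FPKM, so that each neutrophil library still held more than 100 FPKM of both. The fold was wider for the peptide loader H2-DMa (11.7-fold), the thiol reductase Ifi30 (15.8-fold) and the proteases Ctss (16.2-fold) and Lgmn (11.5-fold). The exception was Cd80, a costimulator of T cells, which rose from 12.3 and 20.9 to 150.2, 128 and 80 FPKM (log2 difference 2.77, SE 0.30, adjusted p = 9.3e-05), while Cd40 fell from 18.7 and 20.1 to 2.96, 1.75 and 3.6 FPKM. Dendritic cell markers were lower as well, 9 of 12 on the deposited scale, 7 under all 3 scalings and 4 of 8 tested without monocyte replicate 4, with Flt3 at 19.6 and 23.9 against 0.492, 0.2 and 0.215 FPKM. Their summed level was 338 and 380.5 FPKM in monocytes and 56.2, 49.9 and 85.6 FPKM in neutrophils, and their part in the class II difference was not tested.

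Promoters of class II genes are known to carry a Y box, bound by the factor NF-Y. H2-Aa and H2-Eb1 are shown because they fell together and hold this box close to the start. The bases run 5′ to 3′ on the gene's strand and end at the base before the RefSeq start (GRCm38.p6), on the minus strand at chr17:34287824-34287914 and on the plus strand at chr17:34305765-34305866, with the Y box CTGATTGG in capitals:
H2-Aa: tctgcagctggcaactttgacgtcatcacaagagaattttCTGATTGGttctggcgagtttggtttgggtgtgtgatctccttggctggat
H2-Eb1: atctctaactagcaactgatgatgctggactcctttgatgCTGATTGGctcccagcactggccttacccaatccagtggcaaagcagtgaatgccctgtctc
The capitals begin 51 and 62 bases before the start. Searched on both strands, CTGATTGG occurred in 3 of the 12 class II genes with a promoter window (H2-Aa, H2-Eb1 and H2-Oa), in 0 of 21 neutrophil identity genes and in 3.83% of all 32851 windows of 250 bases before a start. A gene was counted if any of its windows held the motif, so shares of genes and shares of windows are not directly comparable. These counts describe letters, not binding, and the motifs shown were chosen after others had been searched.

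Of 16 chemokine receptors, 4 were called higher in neutrophils and 8 lower, 4 and 5 under all 3 scalings (5 of 13 tested were lower without either monocyte library). Ccr1, a receptor for CCL3 and CCL5, rose from 15.9 and 17.5 to 871, 983 and 824 FPKM (log2 difference 5.65, SE 0.14, adjusted p = 7.1e-07). Ccrl2, an atypical receptor that presents chemerin, was abundant in both cells and higher in neutrophils (461 and 223 against 1994, 2347 and 1748 FPKM). The monocyte libraries held more Cmklr1, the signalling receptor for chemerin (19.6 and 15.7 against 1.57, 1.74 and 2.74 FPKM). They also held more of the lipid receptor gene S1pr5 (9.28 and 11.9 against 0.0788, 0.491 and 0.761 FPKM). NK cell genes, given below, were higher in the monocyte libraries too, and the part of NK cells in S1pr5 was not tested. Cxcr4, which retains cells in the marrow, read 618 and 422 against 656, 729.5 and 752 FPKM (log2 difference 0.48, SE 0.19, adjusted p = 0.045). It was called under all 3 scalings, but not with no filter, in the fit of all 10 groups, without any 1 neutrophil library (adjusted p = 0.064 to 0.10) or without monocyte replicate 4 (log2 difference 0.20, adjusted p = 0.298).

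Chemokine ligands were lower in neutrophils in 12 of 18 and higher in 2, with a median of -2.07, and 10 and 2 held under all 3 scalings. Without monocyte replicate 3 the median was -1.27 over the 14 members that still met the filter. Members such as Ccl7 were no longer tested there, so an effect of that library and the change of members cannot be told apart. The 66.7% lower on the deposited scale was near the 65.2% of all genes, and 55.6% were lower under all 3 scalings, against 28.5%. Ccl2, the ligand of Ccr2, fell from 272 and 125 to 3.84, 3.74 and 7.14 FPKM (log2 difference -5.02, SE 0.36, adjusted p = 1.6e-05). Ccl7, which also binds Ccr2, fell from 12.3 and 19.1 to 0.303, 0.61 and 0.977 FPKM. The membrane-bound Cxcl16 (6.16-fold) and the interferon-induced Cxcl10 (4.86-fold) were lower too. Ccl5 read 335 and 946 against 16.8, 19 and 35.7 FPKM, with more in monocyte replicate 4 than in replicate 3, as for the NK cell genes given below. The part of NK cells in Ccl5 was not tested. The ligands higher in neutrophils were both agonists of Cxcr2. Cxcl3 rose from 3.1 and 10.9 to 591, 439 and 342 FPKM (log2 difference 6.0, SE 0.42, adjusted p = 1.5e-05) and Cxcl1 from 6.88 and 13.8 to 66.5, 51.1 and 41.1 FPKM. Ccl3 was abundant in all 5 libraries, and the groups overlapped (1199 and 1454 against 1144, 1461 and 1012 FPKM), although upper-quartile scaling alone called it higher.

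Cytokine genes leaned to neutrophils. Of 24 tested, 15 were called higher and 7 lower on the deposited scale (median 1.16), and 14 and 4 under all 3 scalings, so that 58.3% were higher against 14.1% of all genes. Il1b, the inflammatory cytokine interleukin-1 beta, rose from 263 and 116 to 7318, 6815 and 6573 FPKM (log2 difference 5.29, SE 0.31, adjusted p = 8.1e-06). Il1a rose from 8.95 and 16.3 to 111, 98.7 and 111 FPKM. The antagonist of both, Il1rn, rose from 14.8 and 63.8 to 1310.2, 1378 and 1103 FPKM (log2 difference 5.30, SE 0.50, adjusted p = 4.8e-05). Agonists and antagonist of this family were thus high in the same sorted population, with no overlap between the groups for any of the 3. Csf3, the gene for G-CSF itself, was below 1 FPKM in monocytes and read 30.6, 34.7 and 20.3 FPKM in neutrophils. Csf1, the gene for M-CSF, rose from 20.8 and 21.5 to 172, 158 and 131 FPKM, opposite to its receptor gene Csf1r. Il15 (5.4-fold), the TNF-family ligand Tnfsf14 (15.4-fold) and Spp1, or osteopontin (11.7-fold), were higher in neutrophils, and Il23a rose from 0.394 and 0.771 to 12.3, 9.17 and 9.01 FPKM. Il6 (9.02-fold) and Tgfb1 (3.73-fold) were lower, and the B cell factor Tnfsf13 fell from 52.9 and 36 to less than 1 FPKM in each neutrophil library.

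Among 32 cytokine receptors, 11 were called higher and 14 lower on the deposited scale, and 11 and 5 under all 3 scalings. Il1rap, the shared signalling chain of interleukin-1 and interleukin-36 receptors, rose from 6.25 and 6.45 to 119, 118 and 100.4 FPKM (log2 difference 3.94, SE 0.14, adjusted p = 1.8e-06). The tumour necrosis factor receptors Tnfrsf1b (5.52-fold) and Tnfrsf1a (2.52-fold) and the GM-CSF receptor chain Csf2ra (2.84-fold) were higher in neutrophils. Lower receptors besides Csf1r and Flt3 were Kit, the receptor for stem cell factor (25.8 and 17.7 against 2.22, 1.92 and 1.6 FPKM), Il6st, the common chain of the interleukin-6 family (32.1 and 33.6 against 4.53, 3.08 and 4.14 FPKM), and Il3ra (5.05-fold).

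**Figure D3:**
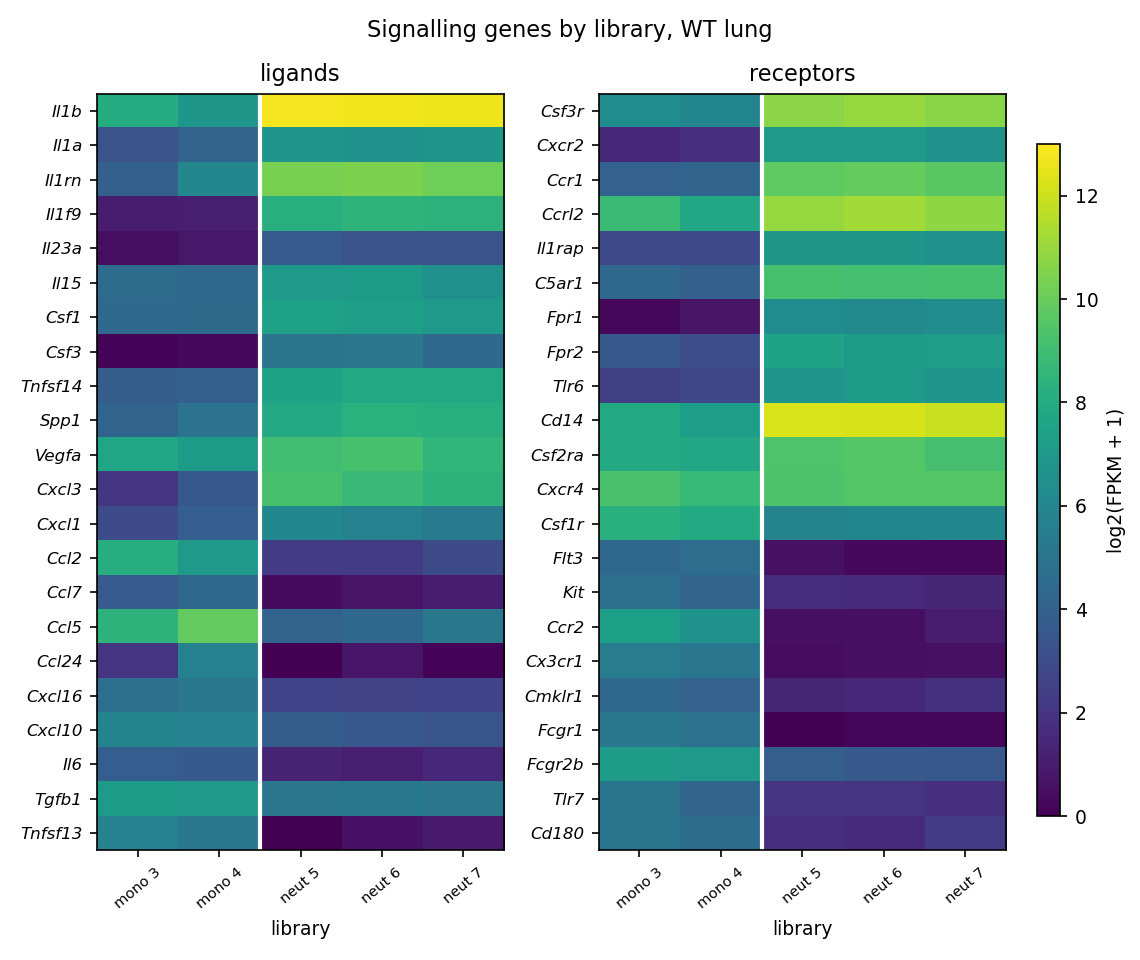
Heat map of log2(FPKM + 1) for 22 ligand genes (left) and 22 receptor genes (right) in each library, monocyte replicates 3 and 4 left of the white line and neutrophil replicates 5 to 7 right of it; colour runs from 0 (dark) to 13 (yellow). Il1b and Cd14 are the brightest rows of the neutrophil columns, and Ccr2, Cx3cr1, Fcgr1 and Flt3 are dark there.

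Of 28 pattern recognition genes, 9 were called higher in neutrophils and 14 lower, 9 and 12 under all 3 scalings. The formyl peptide receptor Fpr1 rose from 0.204 and 0.589 to 78.9, 71.2 and 81.8 FPKM and Fpr2 from 11.3 and 7.82 to 180.4, 147 and 150.4 FPKM. The surface receptors Tlr6 (22.9-fold), Tlr4 (3.84-fold) and Tlr2 (2.31-fold) were higher in neutrophils as well. The endosomal receptors of nucleic acids Tlr7 (8.94-fold) and Tlr9 (4.36-fold) and the DNA-sensing adaptor Tmem173, or STING (9.33-fold), were lower, and Tlr3 read 3.45 and 2.32 against 0.193, 0.305 and 0.156 FPKM. Inflammasome genes did not move together. The sensor Nlrp3 rose from 86.3 and 70.3 to 1257, 1276 and 1091 FPKM (log2 difference 3.93, SE 0.15, adjusted p = 1.9e-06). The adaptor Pycard fell from 26.9 and 31.3 to 1.48, 1.67 and 2.26 FPKM (log2 difference -3.43, SE 0.19, adjusted p = 7.0e-06). Casp1, the protease they activate, fell from 59.5 and 49.1 to 11.2, 12.1 and 10.2 FPKM, while Casp4, which senses intracellular lipopolysaccharide, was higher (2.2-fold).

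C-type lectins and paired receptors were higher in neutrophils in 13 of 20 and lower in 6, with a median of 1.50, and 13 and 5 held under all 3 scalings. Clec4d, a receptor for fungal and mycobacterial surfaces, rose from 35.8 and 32.1 to 2738, 2812 and 2329.8 FPKM (log2 difference 6.23, SE 0.15, adjusted p = 7.1e-07). Its partner Clec4e, or Mincle, rose from 149 and 87 to 1075, 1058 and 987 FPKM (log2 difference 3.18, SE 0.22, adjusted p = 1.5e-05). Clec4n, or Dectin-2 (11.2-fold), Clec7a, or Dectin-1 (4.11-fold), and the paired receptors Cd300lf (20.3-fold) and Pilra (6.2-fold) were higher as well. Trem2 fell from 20.8 and 23.7 to 1.76, 1.93 and 1.9 FPKM, and Clec12a was lower by a smaller ratio (3.04-fold). Trem1 and Trem2 share the adaptor Tyrobp and differed in opposite directions, and Tyrobp itself was higher in neutrophils (1854 and 1729 against 4212, 4718 and 3937 FPKM).

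Clec4e and Mmp8 rose together and are shown because both hold a match to a C/EBP-type motif, TTGCNNAA, near the start. The bases lie at chr6:123289872-123289977 on the minus strand and at chr9:7558370-7558428 on the plus strand (RefSeq starts, GRCm38.p6), with the match in capitals, which in Clec4e is the reverse complement of the motif (a match on the other strand):
Clec4e: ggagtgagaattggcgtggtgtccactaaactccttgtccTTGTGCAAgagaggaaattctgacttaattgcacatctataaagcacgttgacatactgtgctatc
Mmp8: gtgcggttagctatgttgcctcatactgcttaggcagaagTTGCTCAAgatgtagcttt
The capitals begin 66 and 19 bases before the start. On both strands, TTGCNNAA was found in 5 of 21 neutrophil identity genes with a window (Clec4e, Mmp8, Retnlg, S100a9 and Slpi), in 1 of 12 class II genes (Ifi30) and in 9.56% of all windows. Here too, genes were counted by any window and the share of all by single windows. A match describes the letters and says nothing of a bound factor.

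Fc and complement receptors differed within families, with 7 of 16 called higher and 8 lower on the deposited scale, and 5 and 6 under all 3 scalings (5 of 14 tested were lower without monocyte replicate 3). C5ar1, the receptor of the chemoattractant C5a, rose from 20 and 15.1 to 596, 561 and 587 FPKM (log2 difference 4.99, SE 0.15, adjusted p = 1.1e-06). Of the IgG receptors, the activating Fcgr4 was higher in neutrophils, and the inhibitory Fcgr2b was lower (138 and 129.8 against 14.4, 11.5 and 10.8 FPKM). Fcgr1, the high-affinity receptor, was below 1 FPKM in neutrophils and read 36.5 and 28.6 FPKM in monocytes. C1qb, a chain of complement C1q, read 32.3 and 125 against 1.01, 2.03 and 6.4 FPKM, lower in neutrophils and with more in monocyte replicate 4 than in replicate 3.

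Adhesion genes were lower in 15 of 25 and higher in 8, and 13 and 6 of these calls held under all 3 scalings. The lower share was 60.0% on the deposited scale, near the 65.2% of all genes, and 52.0% under all 3 scalings, against 28.5%. The integrin genes Itgb7 (6.03-fold), Itgb1 (5.2-fold) and Itga5 (3.59-fold) were lower in neutrophils. Cd44, a receptor for hyaluronan and osteopontin, rose from 206 and 149 to 860.0, 731 and 752 FPKM, and Selplg, the ligand of P-selectin, from 229.8 and 250.4 to 422, 487 and 458 FPKM. Pecam1, which endothelial cells share with leukocytes, was lower (124 and 79.4 against 17.1, 12.3 and 12 FPKM).

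The phagocyte NADPH oxidase, which makes superoxide, was unevenly transcribed. Its cytosolic subunit Ncf1 rose from 85.1 and 116 to 434, 406 and 404 FPKM, and Ncf4 (2.2-fold) and the GTPase gene Rac2 (2.39-fold) were higher too. Cybb, the catalytic subunit in the membrane, fell from 293 and 203 to 18, 17.3 and 16.6 FPKM (log2 difference -3.74, SE 0.18, adjusted p = 3.7e-06). Its membrane partner Cyba overlapped between the groups (595 and 573 against 462, 582 and 482 FPKM) and was called higher with upper-quartile scaling alone. Of the 8 genes, 4 were called higher and 3 lower, and 4 and 2 held under all 3 scalings.

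Among 20 genes of leukotriene and prostaglandin synthesis, 4 were called higher and 9 lower on the deposited scale, and 4 and 3 under all 3 scalings. Alox5, the first enzyme of leukotriene synthesis, rose from 4.77 and 11.2 to 63, 60.2 and 63.4 FPKM (log2 difference 2.91, SE 0.28, adjusted p = 5.7e-05). Ptgs2, the inducible cyclooxygenase, rose from 65.9 and 58.7 to 771, 698 and 436 FPKM (log2 difference 3.29, SE 0.24, adjusted p = 1.8e-05). Pla2g7, which degrades platelet-activating factor (4.9-fold), and the prostaglandin receptor gene Ptger2 (0.663 and 0.61 against 3.75, 3.57 and 2.85 FPKM) were the other higher members. Hpgd, which inactivates prostaglandins, fell from 221 and 96 to 7.75, 6.23 and 14.2 FPKM, so a synthetic and a degrading enzyme lay on opposite sides.

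Interferon-stimulated genes did not move as a unit. Of 24, 16 were called lower and 7 higher (median -1.06), and 12 and 7 under all 3 scalings. The 66.7% lower on the deposited scale and the median were near those of all genes (65.2% and -0.93), and 12 of 24 were lower under all 3 scalings, against 28.5% of all genes. Slfn4, a member of the Schlafen family, rose from 49.6 and 36.8 to 1115, 901 and 979.7 FPKM (log2 difference 4.51, SE 0.17, adjusted p = 1.9e-06). Isg15, a ubiquitin-like modifier, rose from 84.2 and 84.2 to 413, 461 and 358 FPKM, and Isg20 (5.21-fold) and Rsad2 (4.31-fold) were higher. Bst2, or tetherin, fell from 202 and 211 to 14.5, 13.3 and 14.4 FPKM. Ifitm3 (4.63-fold), Gbp3 (15.7-fold) and the signalling factor Stat2 (5.5-fold) were lower.

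Genes of cell death and survival were called higher in 9 of 22 and lower in 9 on the deposited scale, and 9 and 5 held under all 3 scalings. Mcl1, on which neutrophil survival depends, rose from 447 and 411 to 968, 1059.9 and 933 FPKM (log2 difference 1.20, SE 0.14, adjusted p = 0.00013). The survival genes Bcl2l1 (2.71-fold) and Birc3 (4.11-fold) and the kinase gene Pim1 (2.54-fold) were higher. The pro-apoptotic Bcl2l11, or BIM, rose from 22.5 and 31.9 to 188, 189.7 and 165 FPKM, and the death receptor gene Fas was higher (3.19-fold). Bcl2 (5.92-fold), the effectors Bax (3.9-fold) and Bak1 (5.23-fold) and the initiator Casp8 (7.11-fold) were lower. Survival and death genes thus occurred on both sides.

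Of 24 glycolysis genes, 8 were called higher and 8 lower on the deposited scale, and 8 and 1 under all 3 scalings, the lower one being Tpi1 (58.2 and 58.5 against 23.9, 30.2 and 25.4 FPKM). On the deposited scale 5 of 22 tested were lower without either monocyte library. Slc2a3, the glucose transporter GLUT3, rose from 5.31 and 18.5 to 356, 383 and 321 FPKM (log2 difference 4.99, SE 0.40, adjusted p = 2.6e-05). Slc16a3, the lactate exporter MCT4, rose from 17.6 and 36.3 to 648, 683 and 697 FPKM (log2 difference 4.68, SE 0.26, adjusted p = 7.6e-06). Slc2a1, or GLUT1 (3.62-fold), the glycogen phosphorylase gene Pygl (4.13-fold) and the hexokinase gene Hk3 (3.53-fold) were higher too.

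Genes of oxidative phosphorylation were called lower in 34 of 37 on the deposited scale (median -1.31). The list's median was -0.61 with upper-quartile scaling and -1.30 with quantile normalization, and 23 genes, 62.2%, were lower under all 3 scalings against 28.5% of all genes. Ndufa9, of complex I, fell from 34.6 and 32.5 to 4.26, 3.44 and 5.49 FPKM, and Atp5o, of the ATP synthase, from 117 and 93.3 to 15.3, 16.9 and 18.5 FPKM. Cytosolic ribosomal protein genes were called lower in 62 of 63 (median -1.95), 60 of them under all 3 scalings. Rpsa fell from 1538 and 1856 to 158, 189 and 211 FPKM (log2 difference -3.19, SE 0.17, adjusted p = 6.4e-06). Together the 63 genes took 17.0% and 17.8% of all FPKM in monocytes and 4.91%, 5.22% and 5.60% in neutrophils.

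Lysosomal genes were called lower in 23 of 36 and higher in 8, and 15 and 8 held under all 3 scalings. The 63.9% lower on the deposited scale was near the 65.2% of all genes, and 41.7% were lower under all 3 scalings, against 28.5%. Ctsc, which activates granule proteases, fell from 329.6 and 202 to 24.6, 22 and 36.2 FPKM. The cholesterol carrier gene Npc2 was lower too (7.45-fold). Higher members included the proton pump subunit Atp6v0d1 (3.76-fold), the galactosidase gene Gla (2.89-fold) and Lamp2 (2.24-fold). Of 17 iron and heme genes, 8 were called higher and 8 lower, and 7 and 4 held under all 3 scalings. Slc40a1, or ferroportin, the cellular iron exporter, rose from 0.358 and 2.23 to 76.6, 102 and 60 FPKM (log2 difference 5.23, SE 0.36, adjusted p = 1.5e-05). Slc11a1, the phagosomal metal transporter NRAMP1, rose from 83 and 113 to 589, 715 and 584 FPKM (log2 difference 2.68, SE 0.18, adjusted p = 1.3e-05). Hmox1, which degrades heme, fell from 312 and 219 to 53.6, 75.7 and 68.7 FPKM (log2 difference -1.98, SE 0.21, adjusted p = 7.5e-05), and Blvra, which acts after it, was lower too (7.9-fold).

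Nuclear envelope genes differed in both directions, 6 of 15 higher and 8 lower on the deposited scale, and 6 and 5 under all 3 scalings. Lmnb1, or lamin B1, rose from 29.9 and 59.5 to 1212, 1294 and 1034 FPKM (log2 difference 4.77, SE 0.27, adjusted p = 7.6e-06), and Emd, or emerin, from 56 and 66.1 to 441, 468 and 346 FPKM. Lmna, which encodes lamins A and C, fell from 32.3 and 37.7 to 14.5, 12.4 and 9.22 FPKM (log2 difference -1.49, SE 0.20, adjusted p = 0.00027). Sun1 and Sun2, which link the envelope to the cytoskeleton, lay on opposite sides, with Sun1 lower (5.65-fold) and Sun2 higher (2.67-fold) in neutrophils.

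Of 24 immediate early and heat shock genes, 16 were called lower and 5 higher, 12 and 5 under all 3 scalings (3 were higher without monocyte replicate 4). The 66.7% lower on the deposited scale was near the 65.2% of all genes, and 12 of 24 were lower under all 3 scalings, against 28.5% of all genes. The heat shock gene Hspa1a fell from 1109 and 900.0 to 31.9, 40.3 and 75.7 FPKM (log2 difference -4.41, SE 0.33, adjusted p = 1.9e-05), and Hspa8 from 2299 and 1979.8 to 290.0, 346 and 339 FPKM. Jun fell from 1700.3 and 1764 to 151, 173 and 194 FPKM, and Fos was lower by a smaller ratio (2.67-fold). Nfkbia, the inhibitor of NF-kappaB, rose from 934 and 842 to 1829, 1917 and 2039.6 FPKM, and Ier3 was higher too (2.34-fold). Proliferation genes were low: of 36 in the table, 12 stayed below the filter, and of 24 tested 16 were called lower and 2 higher, 7 and 2 under all 3 scalings (1 was higher without neutrophil replicate 5 or 6 or monocyte replicate 3). Their lower shares, 66.7% and 29.2%, were near those of all genes (65.2% and 28.5%). Mcm3, of the replicative helicase, read 7.54 and 11.6 against 1.01, 1.39 and 1.24 FPKM, and Stmn1, a microtubule regulator, read 29.3 and 42.9 against 9.2, 4.96 and 9.47 FPKM, both lower in neutrophils.

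**Figure D4:**
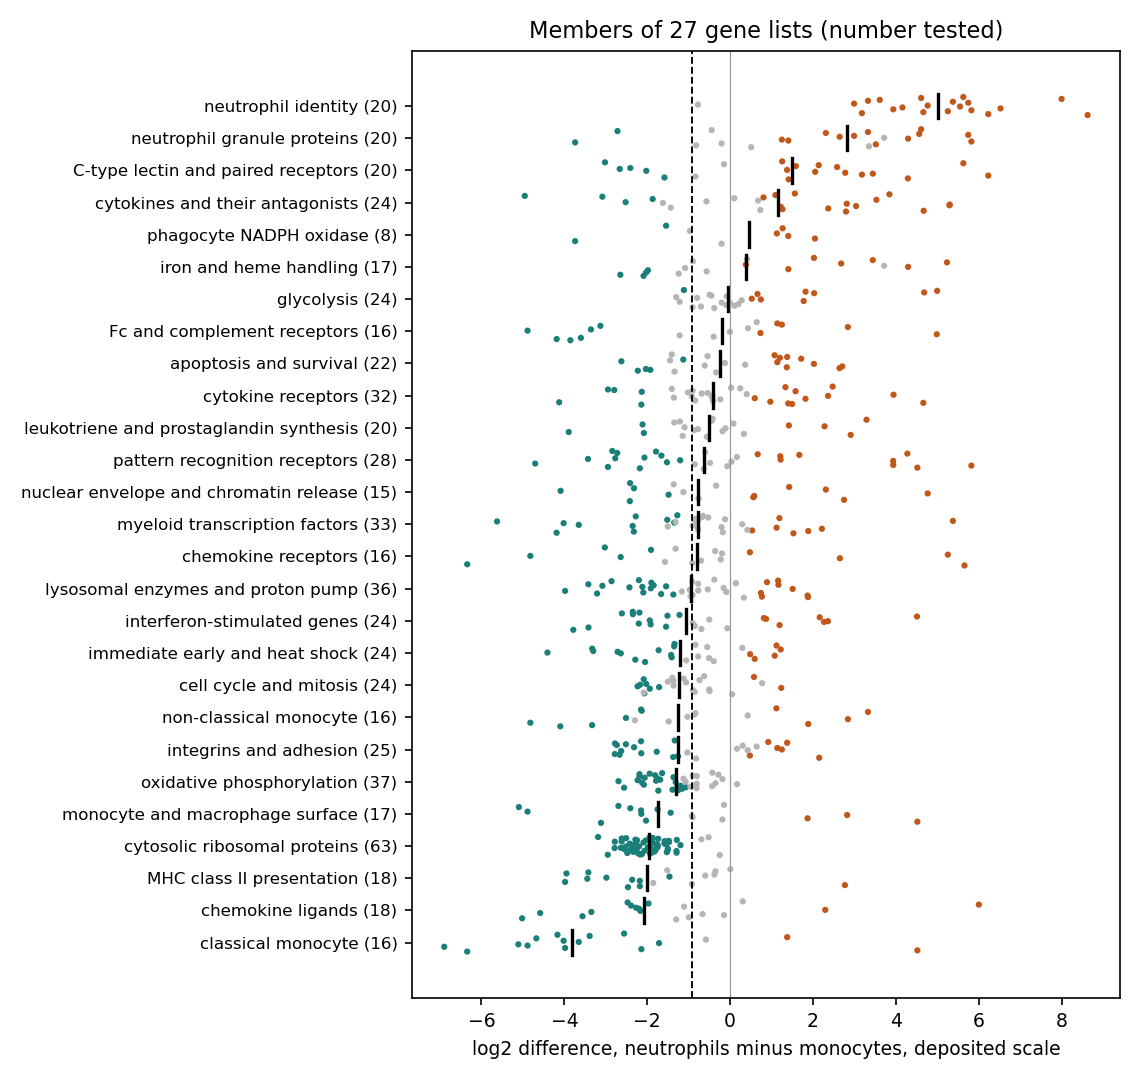
Log2 difference of each tested member (points) and the median (black bar) of 27 gene lists on the deposited scale, with the number tested in brackets; orange and green points were higher or lower under all 3 scalings, grey points were not, the dashed line is the median of all genes, -0.93, and the grey line is 0. Neutrophil identity (median 5.01) and classical monocyte genes (median -3.82) lie at the ends.

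Markers of other lung cells were present in both preparations, and unequally. All 13 NK cell genes were lower in neutrophils under all 3 scalings. Their summed level was 771 and 1633 FPKM in monocytes and 28.8, 36 and 70.8 FPKM in neutrophils, beside a mean of 1091 FPKM in WT total lung cells, and the granzyme gene Gzma read 295 and 614 against 10.2, 8.45 and 22.2 FPKM. Monocyte replicate 4 held more of these transcripts than replicate 3. All 19 endothelial genes were lower too, with a sum of 1584 and 995 FPKM in monocytes and 153, 129 and 119.9 FPKM in neutrophils. The mean sum in WT total lung cells was 916 FPKM, below that of both monocyte libraries. Cdh5, or VE-cadherin, read 123 and 81.9 against 12.1, 8.9 and 7.05 FPKM. Here monocyte replicate 3 held more. T cell genes were called lower in 11 of 15 on the deposited scale, in 2 under all 3 scalings and in 7 without monocyte replicate 4 or neutrophil replicate 5. Of 20 fibroblast and smooth muscle genes, 14 were called lower and 4 higher, 2 and 4 under all 3 scalings, and 7 to 9 were lower without any 1 library but neutrophil replicate 7. On the deposited scale the lower shares of the T cell list (73.3%) and of the fibroblast and smooth muscle list (70.0%) were near the 65.2% of all genes. Under all 3 scalings they were 13.3% and 10.0%, below the 28.5% of all genes. No marker of the NK cell, endothelial, T cell, B cell, dendritic cell or alveolar type II lists was at 0 in a whole group. The part of these cells in the other differences was not tested, and in bulk libraries fewer cells of a type and less RNA per cell cannot be told apart.

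B cell genes overlapped between the groups. Limma called 0 of 14 on the deposited scale, with 0 at an unadjusted p under 0.05, and the sum was 226 and 333 FPKM in monocytes and 282, 242 and 349 FPKM in neutrophils. On leaving out 1 library the most that limma called was 3 of 14, higher without monocyte replicate 4. Alveolar type II genes varied between libraries of the same population. Sftpc, the surfactant protein C gene, read 1781 and 229 against 699, 441 and 1764 FPKM, so that monocyte replicate 3 and neutrophil replicate 7 were the highest. Of 13 such genes, 2 were called lower on the deposited scale and 1 under all 3 scalings, Napsa, an aspartic protease that matures surfactant protein B (309.9 and 240.2 against 98.5, 87.6 and 101 FPKM). Without monocyte replicate 3, 7 of 12 tested were called higher. In the club cell list 0 of 9 were called, with 1 at an unadjusted p under 0.05, and the sum was 73.4 and 465 FPKM in monocytes and 1067, 193 and 1213 FPKM in neutrophils. Without neutrophil replicate 6 or monocyte replicate 4, 3 were called higher. Alveolar macrophage genes summed to 200.4 and 186 FPKM in monocytes and 160.2, 168 and 152 FPKM in neutrophils, and Marco, a receptor of these macrophages, was below 1 FPKM in all 5 libraries. Few basophil, mast cell and eosinophil genes were measurable, with 2 of 5 lower on the deposited scale, 4 of 4 tested without monocyte replicate 3 and 1 of 4 without monocyte replicate 4. Of 7 erythroid and platelet genes, 2 were higher and 1 lower, with 3 higher without monocyte replicate 3 and 1 without monocyte replicate 4 or neutrophil replicate 6 or 7.

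**Figure D5:**
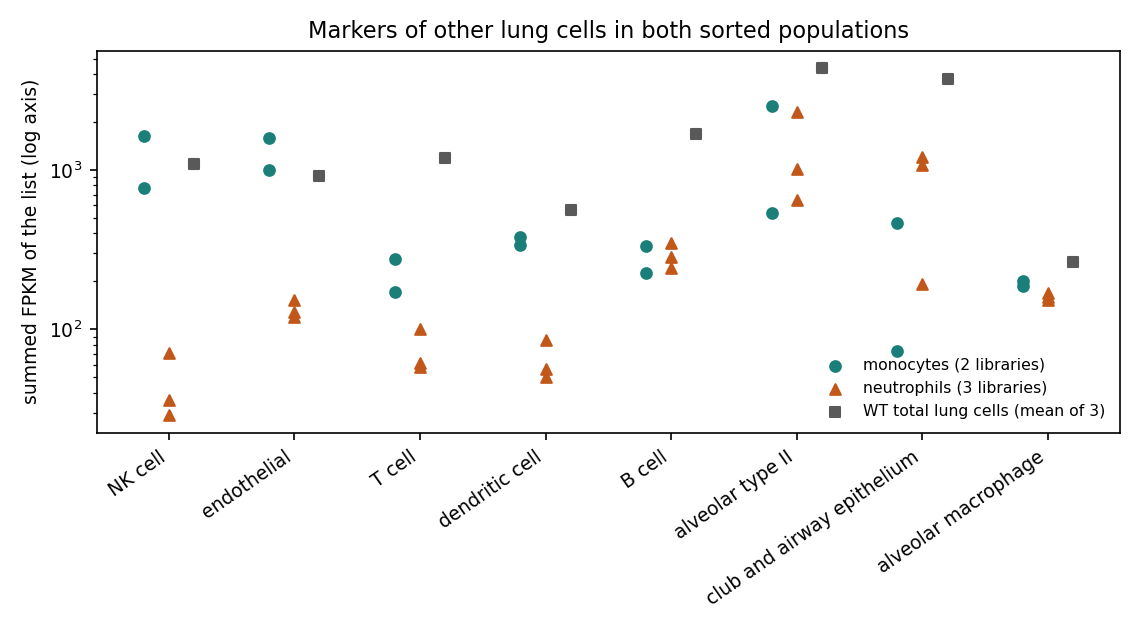
Summed FPKM of 8 marker lists of other lung cells (log axis) in each monocyte library (circles) and neutrophil library (triangles), with the mean of 3 WT total lung libraries (squares). NK cell and endothelial sums are higher in both monocyte libraries than in any neutrophil library, and the alveolar type II sums overlap.

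The same contrast was read in separate libraries from C57BL/6 lungs that carried tumours of the lung cancer line HKP1, injected through the tail vein and grown for 20 to 25 days. These were 3 libraries of CD11b+Ly6G+ neutrophils and 2 of CD11b+Ly6C+ monocytes, which share no sample with the WT groups. Of the 1454 genes higher in WT neutrophils under all 3 scalings, 4 were listed at 0 in a whole tumour group, among them Il1b and Ccrl2 in tumour neutrophils, and were not read further. Of the other 1450, 1005 (69.3%) had all 3 tumour neutrophil libraries above both tumour monocyte libraries, against 14.1% of all genes read, and 103 had them all below. Of the 2932 lower genes, 2869 (97.9%) had all 3 below, against 70.5% of all genes read, and 11 had them all above. The 19 neutrophil identity genes higher and the 13 classical monocyte genes lower under all 3 scalings were each apart the same way in the tumour libraries, with no overlap. Csf3r averaged 81.3 ± 13.5 FPKM in tumour monocytes (mean ± SD, n = 2) and 1149.9 ± 178 FPKM in tumour neutrophils (n = 3), and Asprv1 0.251 ± 0.222 and 253 ± 31 FPKM. Ccr2 averaged 133 ± 14.8 FPKM in tumour monocytes and 0.948 ± 0.162 FPKM in tumour neutrophils. Spp1 was among the 103 genes, named here after its values were seen, with 905 ± 866 FPKM in tumour monocytes and 251 ± 40.2 FPKM in tumour neutrophils. Whether the differences changed with the tumour was not tested.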

How the data were processed

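Sorted cells of WT lung were sequenced, and the authors deposited 1 table of FPKM for 16024 gene symbols and 27 libraries, all matched by title. Per the submitters' processing notes, CASAVA 1.8.2, TopHat2, Cufflinks and Cuffdiff were used on mm10 (GRCm38). The settings are not given in the sources used here. The symbols of Ly6C and Ly6G were not analysed here. Fragment counts and depth are unknown from FPKM, so no counting interval is given. The spacing of values under 0.2 FPKM gave relative depths of 0.993 to 1.27, a rough reading, least clear for monocyte replicate 4.

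Tests used log2(FPKM + 1). A gene was tested if 2 or more of the 5 libraries reached 1 FPKM, and 13 genes listed at 0 in 1 whole group, with a mean of at least 5 FPKM in the other, were left out. Limma 3.58.1 in R 4.3.3 (intensity trend, empirical Bayes, 3 residual degrees of freedom, two-sided) gave adjusted p values, with a threshold of 0.05, and was tested on simulated data. There, 200 of 10018 genes held a planted difference. Limma recovered 47% of those of size 1 on the log2 scale and 83% of those of size 2. Of its 137 calls, 7 were false. A gene that was not called can therefore still differ. Recovery and false calls were not tested with as many calls as on the deposited scale (1487 higher and 6709 lower of 10282 genes). Calls were repeated after upper-quartile scaling and quantile normalization, and the requirement that all 3 scalings give a call was added after seeing the data. Alternatives also changed the pseudocount (0.1 and 5), the filter, the groups fitted, the empirical Bayes option and each library. The 38 gene lists, and the comparison itself, were chosen with earlier results of these data known. Lists are described by counts and medians, without a test.

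Genes were named by a rule: the 12 largest rises and falls among called genes whose groups do not overlap and whose higher mean is at least 5 FPKM, without predicted genes and the like, up to 4 called members of each list with the largest change, sort markers, and any other list member with its values. Some genes that the rule gives are not reported here. Promoter letters came from RefSeq (GRCm38.p6) and positions from GENCODE M21. Figures were drawn with matplotlib 3.10.9 in Python 3.11.15.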

Additional observations from a re-analysis of the deposited data

How the results depend on the processing

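The scaling moved the counts most. Quantile normalization gave 2866 genes called higher in neutrophils and 3207 lower, upper-quartile scaling gave 2515 and 4405, and calls shared by all 3 scalings were 1454 and 2932 (a rule chosen after seeing the data), beside 1487 and 6709 on the deposited scale. Other settings gave 1282 to 1566 higher and 4931 to 6997 lower, and leaving out 1 library gave 1301 to 1447 and 5403 to 6443. Without 1 monocyte library, the other is assumed to vary like the neutrophils, and genes above 1 FPKM in a single library were no longer tested. With quantile normalization the list medians turned to 0.091 for chemokine receptors, 0.30 for cytokine receptors, 0.20 for pattern recognition, 0.18 for leukotriene and prostaglandin synthesis and 0.55 for cell death and survival, and with upper-quartile scaling to 0.28, 0.038, 0.028 and 0.44 for the last 4 and 0.50 for Fc and complement receptors. The median of the latter ran from -0.22 to 0.25 over the libraries left out, and that of basophil, mast cell and eosinophil genes from -2.41 to 0.072. The glycolysis median, -0.041 on the deposited scale, was 0.54 with upper-quartile scaling and 0.28 with quantile normalization. Over the libraries left out it ran from -0.098 to 0.14. Those of alveolar type II (-0.90 to 1.69), club cell (-0.16 to 0.55), erythroid and platelet (-0.21 to 0.56) and B cell genes (-0.25 to 0.28) crossed 0 too. The iron and heme median was -0.093 with the genes listed at 0 kept. Among the genes named, Ccl3 turned to 0.56 and Cyba to 0.50 with upper-quartile scaling, and H2-Oa to 0.39 and 0.039 with quantile and upper-quartile scaling. Over the libraries left out, Camp ran from -0.60 to 7.30 and Sftpc from -1.13 to 1.83. For 191 named genes, 2797 of 2830 values kept direction and call, 23 lost the call, 3 gained one and 7 turned. The 2830 values leave out settings in which a gene was no longer tested. Ccr2, Cx3cr1, Ccl7 and Ccdc109b, among others, have no value without monocyte replicate 3 or 4, so their calls were not checked there. The causes were not tested. No paired analysis was possible because the labels do not say which libraries, if any, came from the same lungs. The replicate numbers run on across the WT groups and give no pairing. With 3 residual degrees of freedom and no counts, the precision of genes with few fragments is unknown.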
